A study of Mus musculus with 6 samples.

Results

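Cholesterol is built from acetyl-CoA by a chain of enzymes under the control of the SREBP transcription factors, and the genes of that chain, of its control and of sterol transport were followed here through osteoblast induction of a mouse cell line. The set was a list of 31 gene symbols covering synthesis, SREBP control, uptake, transport, esterification and oxysterols. A gene entered where a probe set of the array named it and no other gene. This gave 29 genes on 31 probe sets, of 19938 genes in all, and Acat2 and Soat1 were not analysed here. No filter on low values was applied, so all 29 were tested.

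RNA came from MC3T3-E1, a line of osteoblast precursors from newborn C57BL/6 mouse calvaria, and was hybridised to 6 Affymetrix whole-transcript arrays, 1 for each sample. The differentiated group held 3 arrays of cells induced at confluence for 14 days in DMEM with 10% serum, 0.1 µM dexamethasone, 0.2 mM ascorbic acid-2-phosphate, 10 mM β-glycerophosphate and 1 mM sodium pyruvate. The undifferentiated group held 3 arrays of cells maintained in 10% serum and an α-MEM without ascorbic acid, the serum being of a grade qualified for mesenchymal stem cells. The labels name no other treatment, and the replicates are described as independent without saying what separated them, so p-values measure the spread between these samples. Base medium, serum grade, days at confluence and the induction compounds differ together between the groups. The line is a single cell line in culture, and fewer expressing cells and less RNA per cell cannot be told apart in these bulk values.

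In the cell, SREBP precursors sit in the endoplasmic reticulum membrane bound to SCAP. When membrane sterol is low, SCAP carries them to the Golgi, where proteases free a fragment that enters the nucleus and turns on the synthesis genes. When sterol or oxysterol is abundant, the INSIG proteins hold SCAP and the precursors back. The mevalonate steps of the chain also supply the farnesyl and geranylgeranyl groups of prenylated proteins, and the enzyme encoded by Fdps is the target of the nitrogen-containing bisphosphonates used against bone loss.

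The values are log2 expression, and every probe set had been centred on its median over the 6 arrays, so a value gives the distance from that median and not a level. When the groups do not overlap, this centring makes the inner values of the 2 groups mirror each other. Of 10 listed osteoblast markers, 7 were measured. In differentiated arrays 4 of the 7 were higher (16.4% of all genes), led by Dmp1 (log2 fold change 3.44 ± 0.20, SE), Ibsp (3.12 ± 0.09) and Postn (1.67 ± 0.05). The 2 lower ones were Col1a1 (-0.40 ± 0.07) and Sp7 (-0.40 ± 0.07), and 1 did not pass the threshold. Differentiated replicate 2 stood apart for the sterol genes, as the lowest of its group in 21 of the 29 (72.4%), against 38.0% of all genes. Undifferentiated replicate 2 was the lowest of its group in 15 of the 29 (51.7%), against 32% of all genes.

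Cells after induction had less RNA of 6 of 7 mevalonate enzymes and 2 of 3 squalene and lanosterol enzymes, while the sterol feedback gene Insig1 and the oxysterol gene Ch25h rose more than 2-fold. Of the 29 genes, 13 (44.8%) were lower and 6 (20.7%) higher in differentiated arrays at an adjusted p under 0.05 (limma, Benjamini-Hochberg over all genes). Over all genes tested, 19.1% were lower and 16.4% higher, 35.5% in either direction. The set was chosen with earlier results of these data known, so its shares are a description beside those of all genes. The 3 differentiated arrays lay wholly below the undifferentiated ones for 14 of the 29 genes (23% of all genes) and wholly above for 10 (23.2% of all genes). The other 5 overlap, and 46.2% of all genes had groups that do not. Ch25h and Insig1 passed both the threshold and a 2-fold rise, as 2.53% of all genes did, while 2.28% fell by that much and 4.81% did either. The 13 falls were 1.16-fold to 1.63-fold. The median log2 fold change was -0.09 over the 29 genes and 0.02 over all genes. Without differentiated replicate 2 the counts were 12 lower and 6 higher. Sqle and Dhcr7 were then no longer past the threshold, and Ggps1 was called higher. Without undifferentiated replicate 2 the counts were 13 lower and 3 higher, with Tm7sf2, Dhcr7 and Nceh1 no longer past the threshold.

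**Figure D1:**
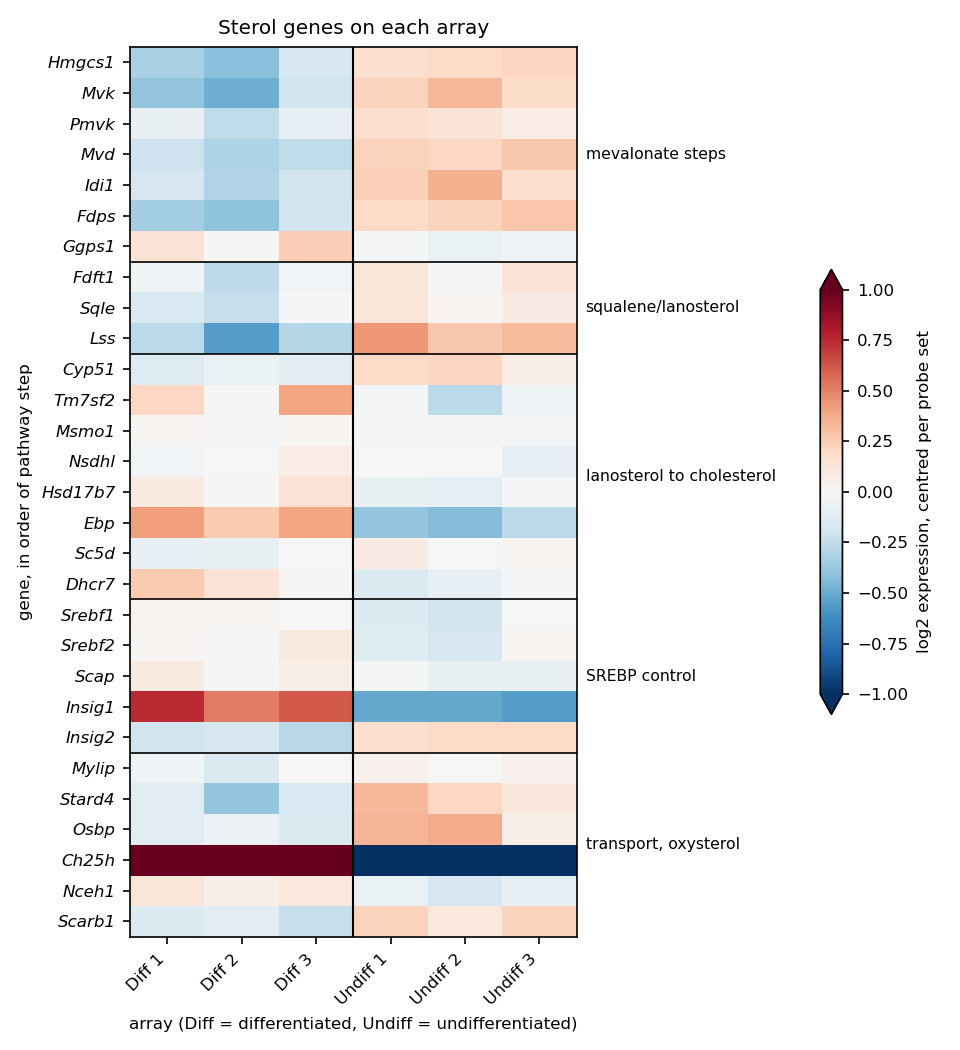
Centred log2 expression (colour) of the 29 sterol genes (rows, in pathway order) on the 3 differentiated and 3 undifferentiated arrays (columns); values beyond the ends of the colour scale take the end colour. The 6 mevalonate enzymes from Hmgcs1 to Fdps are blue on the differentiated arrays, Pmvk only faintly on replicates 1 and 3. Ebp, Insig1 and Ch25h are red on the differentiated arrays.

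The enzymes of the mevalonate steps were mostly lower. Of 7 measured genes, 6 were lower in differentiated arrays (19.1% of all genes) and 1 did not pass. The median log2 fold change was -0.49. All 6 falls kept their direction and their call in every alternative processing in which the gene was tested. Hmgcs1 (probe set 10412466) encodes the cytosolic synthase that makes HMG-CoA. It stood at -0.32, -0.42 and -0.16 on the differentiated arrays, against 0.16, 0.19 and 0.22 on the undifferentiated ones. The groups do not overlap, and the log2 fold change was -0.49 ± 0.07 (SE, adjusted p = 0.000518), which is 1.41-fold lower.

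Mevalonate kinase, Mvk (probe set 10524555), had the largest fall of these steps. Its values were -0.39, -0.49 and -0.19 in differentiated arrays and 0.22, 0.33 and 0.19 in undifferentiated arrays, 1.52-fold lower (-0.60 ± 0.08, adjusted p = 0.000396). The decarboxylase Mvd (probe set 10582310), which forms isopentenyl diphosphate, gave -0.21, -0.31 and -0.26 in differentiated arrays, against 0.23, 0.21 and 0.27 in undifferentiated arrays. It had the smallest SE of the mevalonate genes and was 1.41-fold lower (-0.49 ± 0.05, adjusted p = 9.01e-05). The kinase between them, Pmvk, had a log2 fold change of -0.27 ± 0.07 (adjusted p = 0.0114), the smallest fall of the 6.

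The isomerase Idi1, which interconverts the isoprenoid diphosphate building blocks, was read by a pair of probe sets that gave -0.45 and -0.49. Their mean was -0.17, -0.30 and -0.18 in differentiated arrays and 0.24, 0.35 and 0.17 in undifferentiated arrays (log2 fold change -0.47 ± 0.07, adjusted p = 0.000502). Farnesyl diphosphate synthase, Fdps (probe set 10499483), gave -0.35, -0.40 and -0.19 in differentiated arrays, against 0.19, 0.22 and 0.28 in undifferentiated arrays (-0.55 ± 0.07, adjusted p = 0.000183). Differentiated replicate 2 was the lowest array for each of the 6. Ggps1 encodes the synthase of geranylgeranyl diphosphate, on the branch that leaves the sterol route. It did not fall and was at 0.17 ± 0.07 (95% interval 0.01 to 0.32, adjusted p = 0.0872). The groups do not overlap, with 0.13, 0.01 and 0.24 in differentiated arrays and -0.01, -0.06 and -0.03 in undifferentiated arrays. After cyclic loess Ggps1 was called higher (adjusted p = 0.0130), and so it was without differentiated replicate 2 (adjusted p = 0.0302).

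SREBP is known to act on sterol synthesis promoters next to NF-Y and Sp1, and its part in the falls was not tested. Promoters are shown for the 4 mevalonate genes that fell and had 1 promoter entry each. Each is the run of 150 bases before the RefSeq start of the gene (build GRCm38.p6), written 5′ to 3′ on the strand of the gene. Capitals mark the sterol regulatory element core TCACNCCAC, the E-box CACGTG and the NF-Y box CCAAT, the last reading ATTGG on the other strand.
Hmgcs1 (chr13:119690201-119690350, plus strand): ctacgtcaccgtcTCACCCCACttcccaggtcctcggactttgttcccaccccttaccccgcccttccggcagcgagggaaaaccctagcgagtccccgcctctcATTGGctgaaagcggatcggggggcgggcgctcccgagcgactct
Mvk (chr5:114444119-114444268, plus strand): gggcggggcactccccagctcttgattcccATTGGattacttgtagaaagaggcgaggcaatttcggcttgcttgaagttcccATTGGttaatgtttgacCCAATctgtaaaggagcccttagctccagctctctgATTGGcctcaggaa
Mvd (chr8:122443423-122443572, minus strand): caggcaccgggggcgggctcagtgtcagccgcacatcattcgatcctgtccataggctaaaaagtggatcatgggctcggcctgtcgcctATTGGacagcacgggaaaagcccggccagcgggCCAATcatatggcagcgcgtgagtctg
Idi1 (chr13:8885456-8885605, plus strand): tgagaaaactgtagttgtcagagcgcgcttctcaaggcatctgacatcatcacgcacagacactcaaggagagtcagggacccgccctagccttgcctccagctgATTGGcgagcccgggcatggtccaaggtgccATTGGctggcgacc

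The sterol element core was found in 1 of the promoters of the set, that of Hmgcs1, at position -137 from the start. The search covered 250 bases before to 50 bases after the start on both strands, for 32 promoters of 24 measured genes. Fdps, Fdft1, Sqle, Stard4 and Scarb1 had no entry. Of all 32851 promoters in the table, which include those of noncoding genes, 1.24% held the core. CCAAT was present in 23 of the 32 promoters (71.9%), against 37.4% of all, and the Sp1 box GGGCGG in 24 (75.0%), against 35.7% of all. Of the 13 genes that fell, 9 had a promoter entry. By gene, CCAAT was present in 9 of these 9 and in 13 of the other 15, against 41.1% of all genes. Among falling genes not shown, Pmvk, Lss and Cyp51 held at most 1 CCAAT in a promoter, Insig2 3 and Osbp 5. CACGTG was present in 7 of the 32 promoters (21.9%, 7.15% of all). These belonged to 6 genes, Hsd17b7, Sc5d, Dhcr7, Scap, Insig1 and Nceh1 (25.0% of the 24, 8.09% of all genes). None was among the 9 that fell and had a promoter entry. No match of one motif overlapped a match of another, and a match is a description of the letters, not of binding. A missing match does not show a missing site, since only these letter patterns within 300 bases were searched.

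The next 3 steps carry farnesyl diphosphate to squalene and lanosterol. Of the 3 genes, 2 were lower in differentiated arrays (19.1% of all genes) and 1 did not pass. The median log2 fold change was -0.21. Lanosterol synthase, Lss (probe set 10364194), closes the sterol rings and had the largest fall of the 29 genes. It gave -0.27, -0.55 and -0.28 in differentiated arrays and 0.43, 0.27 and 0.31 in undifferentiated arrays, 1.63-fold lower (log2 fold change -0.71 ± 0.09, adjusted p = 0.000187). Both groups spread more for Lss than for Mvd, and still did not overlap.

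The squalene oxidase gene Sqle (probe set 10424349) fell less. It stood at -0.15, -0.23 and -0.02 in differentiated arrays and at 0.12, 0.02 and 0.08 in undifferentiated arrays (-0.21 ± 0.07, adjusted p = 0.0358). The call was lost without differentiated replicate 1 or 2 or undifferentiated replicate 1 or 3 (adjusted p = 0.0678 to 0.119). The squalene synthase gene Fdft1 was at -0.19 ± 0.08 (95% interval -0.36 to -0.01, adjusted p = 0.0971), with its pair of probe sets at -0.20 and -0.18.

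From lanosterol onward the directions were mixed. Of 8 measured genes, 3 were higher in differentiated arrays (16.4% of all genes), 1 was lower (19.1%) and 4 did not pass. The median log2 fold change was 0.09. The lower one was Cyp51 (probe set 10527920), the lanosterol demethylase that opens this part of the route. Its values were -0.13, -0.07 and -0.11 in differentiated arrays and 0.19, 0.22 and 0.07 in undifferentiated arrays (-0.26 ± 0.06, adjusted p = 0.00694).

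Ebp (probe set 10603485), the sterol isomerase also known as emopamil-binding protein, had the largest rise of any synthesis enzyme. It gave 0.42, 0.26 and 0.40 in differentiated arrays, against -0.39, -0.44 and -0.26 in undifferentiated arrays. It was 1.65-fold higher (0.72 ± 0.07, adjusted p = 4.02e-05) and kept its call in all 14 alternatives. Its promoter is given for comparison with those of the falling genes, in the same form, and holds a CCAAT box but neither other marked motif in this window.
Ebp (chrX:8193513-8193662, minus strand): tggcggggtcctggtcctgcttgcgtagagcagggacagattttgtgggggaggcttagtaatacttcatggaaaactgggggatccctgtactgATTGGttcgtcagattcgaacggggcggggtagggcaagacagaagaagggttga

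The other rises from lanosterol onward were smaller. They kept their direction in every alternative, but lost their calls when any 1 of 4 arrays was left out. The sterol reductase Tm7sf2, which acts after Cyp51, had 0.20, 0.01 and 0.40 in differentiated arrays and -0.01, -0.27 and -0.04 in undifferentiated arrays (0.31 ± 0.10, adjusted p = 0.0448). Its call was lost without differentiated replicate 1 or 3 or undifferentiated replicate 1 or 2 (adjusted p = 0.0526 to 0.150). Dhcr7, the reductase that makes cholesterol from its dehydro precursor, had 0.26, 0.15 and 0.02 in differentiated arrays and -0.14, -0.08 and -0.02 in undifferentiated arrays (0.22 ± 0.07, adjusted p = 0.0428). Its call was lost without differentiated replicate 1 or 2 or undifferentiated replicate 1 or 2 (adjusted p = 0.0967 to 0.145).

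The demethylation genes Msmo1, Nsdhl and Hsd17b7 work in sequence to strip the methyl groups at one carbon of the ring. Msmo1 was at 0.02 ± 0.05 (95% interval -0.10 to 0.13) and Nsdhl at 0.04 ± 0.06 (-0.09 to 0.17), and the groups overlap for both. Hsd17b7 was at 0.15 ± 0.06 (0.02 to 0.28, adjusted p = 0.0755), with groups that do not overlap. Sc5d, a desaturase of the last steps, was at -0.08 ± 0.05 (-0.21 to 0.04, adjusted p = 0.296). Changes of the size seen in Hmgcs1 or Ebp lie outside these 4 intervals. Centred values give no signal level, so a dim probe set cannot be told from an unchanged gene.

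**Figure D2:**
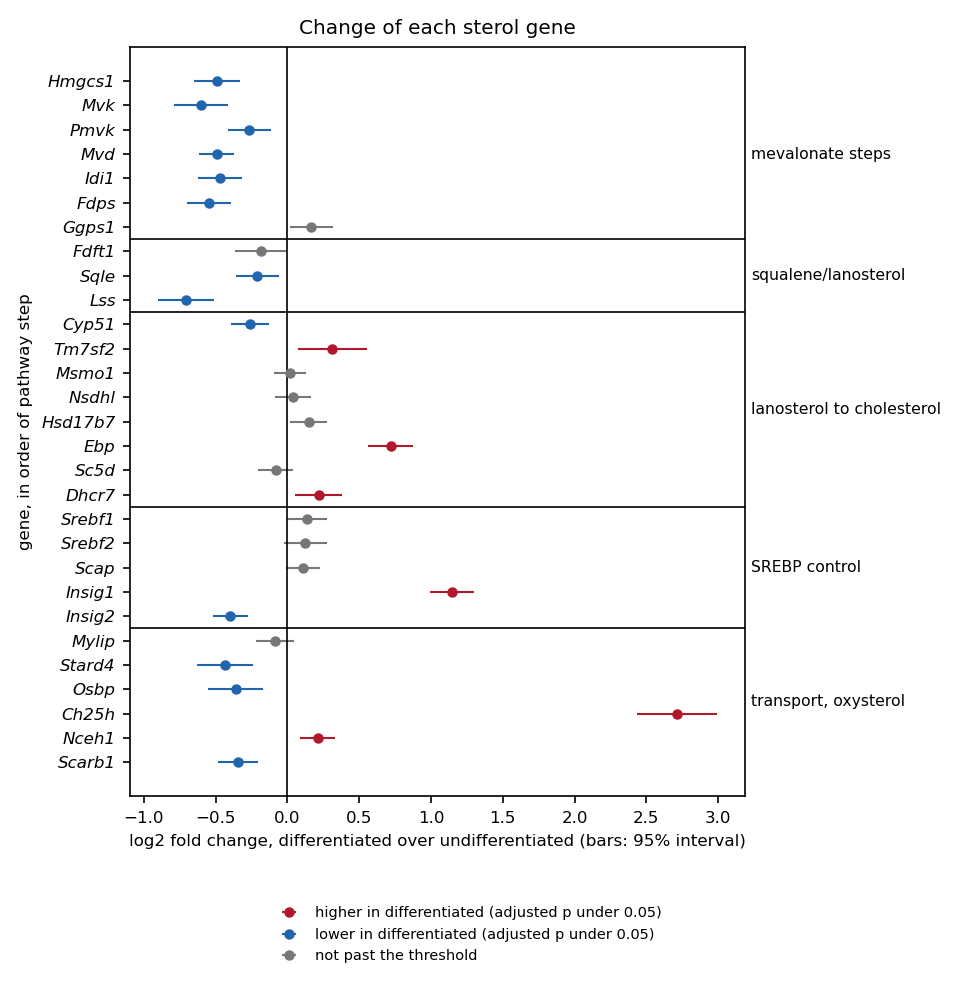
Log2 fold change of each gene, differentiated over undifferentiated (horizontal axis, points), with its 95% interval (bars), in pathway order from top to bottom. The 6 mevalonate falls lie between -0.60 and -0.27, and Ch25h at 2.71 and Insig1 at 1.15 are the rises past 2-fold.

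Among the controllers, the 2 INSIG genes went opposite ways while the SREBP genes and Scap did not pass. Insig1 (probe set 10520362) encodes a retention protein that is itself an SREBP target. It stood at 0.75, 0.51 and 0.62 in differentiated arrays, against -0.51, -0.51 and -0.55 in undifferentiated arrays. The undifferentiated arrays agreed closely (SD 0.02) and the differentiated ones spread more (SD 0.12). Insig1 was 2.22-fold higher (1.15 ± 0.07, adjusted p = 1.88e-06), and 399 genes of the whole table had a larger rise.

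Insig2 (probe set 10357280) encodes the second retention protein, whose gene is not driven by SREBP in the same way. It gave -0.20, -0.16 and -0.28 in differentiated arrays and 0.16, 0.20 and 0.19 in undifferentiated arrays, 1.32-fold lower (-0.40 ± 0.05, adjusted p = 0.000369). Both INSIG genes kept direction and call in all 14 alternatives. The Insig1 promoter is shown as that of the set's feedback gene. In this window it holds an E-box at position -101 from the start, and no sterol element core or CCAAT.
Insig1 (chr5:28071262-28071411, plus strand): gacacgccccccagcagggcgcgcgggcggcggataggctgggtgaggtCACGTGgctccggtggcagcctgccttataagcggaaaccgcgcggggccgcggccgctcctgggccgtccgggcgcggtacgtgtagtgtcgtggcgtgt

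Srebf2, whose product mainly drives sterol synthesis, gave 0.02, -0.02 and 0.10 in differentiated arrays and -0.12, -0.17 and 0.02 in undifferentiated arrays, and the groups overlap. Its log2 fold change was 0.12 ± 0.07 (95% interval -0.02 to 0.27, adjusted p = 0.187). Srebf1, whose product mainly drives fatty acid synthesis, gave 0.04, 0.02 and 0.01 in differentiated arrays and -0.14, -0.19 and -0.01 in undifferentiated arrays (0.13 ± 0.06, adjusted p = 0.128). Of the 14 alternatives it passed in 1, without undifferentiated replicate 3 (adjusted p = 0.0333). The escort gene Scap was at 0.11 ± 0.05 (-0.01 to 0.23, adjusted p = 0.144). The array reads RNA, and the processing of SREBP protein was not measured.

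The sterol transport and oxysterol genes held the largest rise of the set and 3 falls. Of 6 measured, 2 were higher (16.4% of all genes), 3 lower (19.1%) and 1 did not pass. Ch25h (probe set 10467136) encodes a hydroxylase that turns cholesterol into an oxysterol able to hold back SREBP and to activate the LXR receptors. Its values were 1.69, 1.16 and 1.52 in differentiated arrays, against -1.37, -1.25 and -1.16 in undifferentiated arrays. The groups lie far apart, and Ch25h was 6.55-fold higher (2.71 ± 0.12, adjusted p = 4.05e-07), with 39 genes of the whole table rising more.

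Ch25h is known as a gene of activated macrophages, so macrophage markers are given beside it. Of 13 measured, 3 were higher in differentiated arrays, Cd68 (0.44 ± 0.10), Cd14 (0.42 ± 0.05) and Laptm5 (0.22 ± 0.07), and 10 did not pass. Laptm5 lost its call without any 1 of the differentiated arrays or without undifferentiated replicate 1 (adjusted p = 0.0574 to 0.115). The summed centred value of the 13 was 0.38 to 1.58 in differentiated arrays and -1.11 to -0.42 in undifferentiated arrays. Over all genes, 16.4% were called higher and 23.2% lay wholly higher in differentiated arrays. The fold change was above 0 for 10 of the 13 markers and below 0 for 3. Wholly higher were 5 of the 13, the 3 called ones with Ptprc (0.10 ± 0.06, adjusted p = 0.243) and Itgam (0.05 ± 0.05, adjusted p = 0.539). The receptor genes Csf1r (0.07 ± 0.09, adjusted p = 0.616) and Adgre1 (-0.03 ± 0.06, adjusted p = 0.734) overlap between groups. These 4 are named after their values were seen. Centred values cannot show whether a marker is absent, and their part in the Ch25h result was not tested. Of 9 adipocyte markers 2 were higher, Fabp4 (0.46 ± 0.06) and Cebpa (0.22 ± 0.07), and 7 did not pass. Cebpa lost its call without differentiated replicate 1 or 3 or undifferentiated replicate 2 or 3 (adjusted p = 0.0788 to 0.121).

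**Figure D3:**
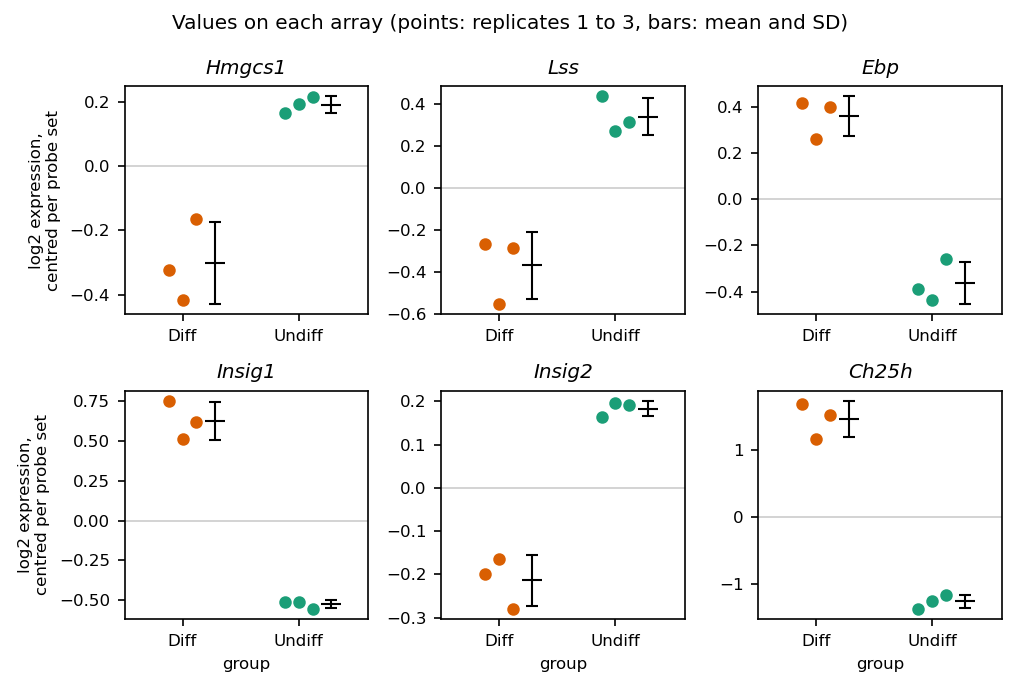
Centred log2 expression (vertical axis, its own range in each panel) of 6 genes on each array, with differentiated arrays left and undifferentiated arrays right; points are replicates 1 to 3 and bars the mean and SD. Hmgcs1, Lss and Insig2 lie lower and Ebp, Insig1 and Ch25h higher in differentiated arrays, and in none of the 6 do the groups overlap.

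A carrier, an exchanger and a receptor of sterol were lower. Stard4 (probe set 10458033), a soluble sterol carrier whose gene is known to respond to SREBP, gave -0.12, -0.39 and -0.16 in differentiated arrays and 0.32, 0.20 and 0.12 in undifferentiated arrays (-0.43 ± 0.09, adjusted p = 0.00337). Scarb1 (probe set 10533929), the receptor for high-density lipoprotein, gave -0.14, -0.11 and -0.23 in differentiated arrays and 0.23, 0.11 and 0.23 in undifferentiated arrays (-0.35 ± 0.06, adjusted p = 0.00183). Both kept their call in all 14 alternatives.

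Osbp, which exchanges sterol between the endoplasmic reticulum and the Golgi, gave -0.11, -0.06 and -0.14 in differentiated arrays and 0.34, 0.37 and 0.06 in undifferentiated arrays (-0.36 ± 0.08, adjusted p = 0.00876). Undifferentiated replicate 3 lay near the differentiated arrays, and after cyclic loess the value was -0.10 and did not pass (adjusted p = 0.230). Nceh1, a hydrolase that frees cholesterol from its esters, was higher by a small amount (0.21 ± 0.05, adjusted p = 0.0135), and not past the threshold without undifferentiated replicate 2 (adjusted p = 0.0517). Mylip, the ligase that marks lipoprotein receptors for degradation, was at -0.09 ± 0.06 (95% interval -0.22 to 0.04, adjusted p = 0.297).

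Around these genes, 6 further lists of sterol biology were read from the same fit. The shares over all genes were 16.4% higher and 19.1% lower. Of 9 genes of sterol efflux and LXR response, 3 were higher, 1 was lower and 5 did not pass, with a median of 0.24. The cholesterol exporter Abca1 gave 0.95, 0.79 and 0.62 in differentiated arrays, against -0.65, -0.76 and -0.62 in undifferentiated arrays, 2.76-fold higher (1.46 ± 0.09, adjusted p = 1.84e-06). The phospholipid transfer protein gene Pltp was 2.56-fold higher (1.36 ± 0.08), and the LXRα gene Nr1h3 was at 0.35 ± 0.07 (adjusted p = 0.00481) and is named after its value was seen. The acyltransferase gene Lpcat3 fell (-0.35 ± 0.06). Mylip and Srebf1 are also in this list and did not pass.

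Among 20 lysosomal, membrane-contact and other sterol carriers, 6 were higher, 2 lower and 12 did not pass. The called shares of this list and of the lipoprotein receptors below lie near the 35.5% called over all genes. The lysosomal cholesterol-binding protein gene Npc2 (1.07 ± 0.05) and Gramd1b, which carries sterol from the plasma membrane inward (1.15 ± 0.08), were both more than 2-fold higher. Tmem97, a sterol-responsive membrane protein, gave -0.67, -0.52 and -0.62 in differentiated arrays and 0.65, 0.78 and 0.50 in undifferentiated arrays, 2.37-fold lower (-1.24 ± 0.08, adjusted p = 3.07e-06). Of 8 lipoprotein receptors, 2 were lower, 1 higher and 5 did not pass. Vldlr, the receptor for very low density lipoprotein, gave -0.54, -0.57 and -0.60 in differentiated arrays and 0.67, 0.54 and 0.82 in undifferentiated arrays, 2.37-fold lower (-1.25 ± 0.07, adjusted p = 1.74e-06). The related receptor gene Lrp8 fell as well (-0.55 ± 0.08), and Lrp1, a large endocytic receptor, rose (0.31 ± 0.07).

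Of 16 genes listed as fatty acid genes that SREBP drives, 7 were lower (19.1% of all genes), 6 higher (16.4%) and 3 did not pass. Insig1, already counted in the set, is among the 6 higher ones. The largest changes of the list were falls of malic enzyme Me1 (-1.22 ± 0.07) and the desaturase Fads2 (-1.20 ± 0.07), beside the rise of Insig1. Of 9 genes of SREBP processing and sterol-regulated degradation, 3 were higher, 3 lower and 3 did not pass, where 35.5% of all genes were called. Erlin1 (-0.65 ± 0.10) and Erlin2 (-0.43 ± 0.07), a pair of endoplasmic reticulum scaffold proteins, fell, and the ubiquitin-conjugating enzyme gene Ube2g2 rose (0.39 ± 0.06). After cyclic loess Erlin1 was at -0.14 (adjusted p = 0.0482) and Ube2g2 at 0.26 (adjusted p = 0.0473), both smaller by more than 1.5 times. On the non-sterol branch of the mevalonate route, 5 of 11 genes were lower (19.1% of all genes) and 6 did not pass, with a median of -0.17. These falls were led by Nus1 (-0.34 ± 0.07), a subunit of the dolichol-forming transferase, Coq2 of ubiquinone synthesis (-0.30 ± 0.07) and the farnesyltransferase subunit Fntb (-0.28 ± 0.06).

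**Figure D4:**
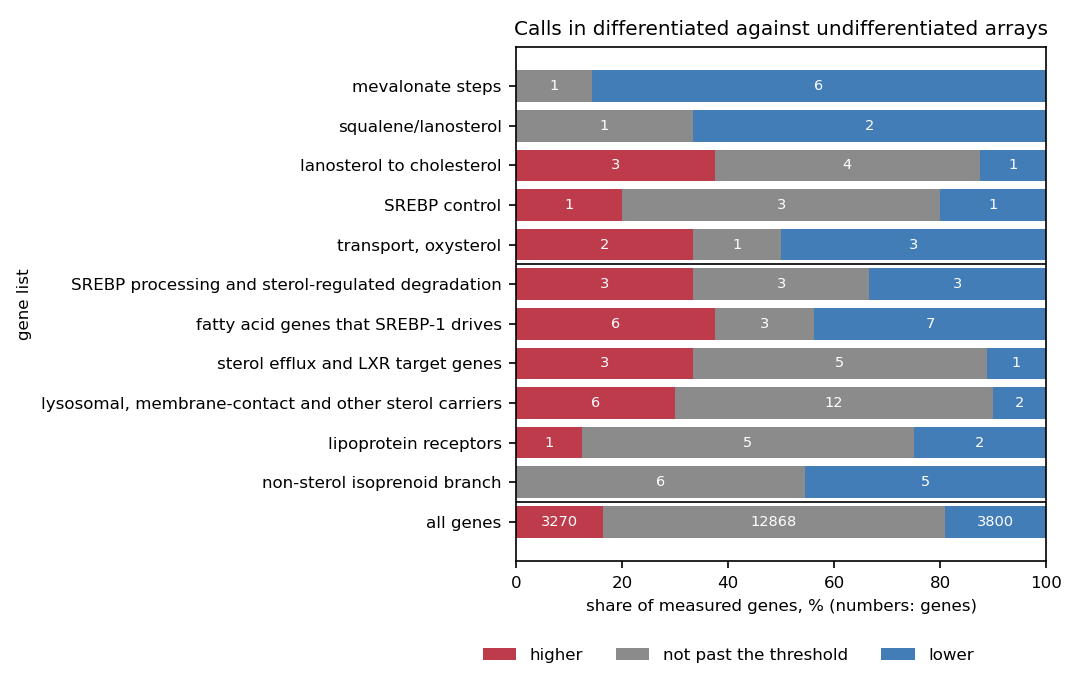
Share of the measured genes of each list (rows) that were higher, not past the threshold or lower in differentiated arrays (horizontal axis in percent, numbers are genes), with the 5 steps of the set on top, 6 further lists below them and all genes last. The mevalonate steps hold 6 lower of 7 genes, where all genes hold 3800 of 19938.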

How the data were processed

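RNA of 6 samples was labelled with biotin and read on 1-colour Affymetrix Mouse Gene ST arrays. The deposited table holds log2 expression that the authors made with RMA, a tool listed without version, per the submitters' processing notes. Its log base follows from that method, and the centring of each probe set on its median over the 6 arrays is seen in the values. Centred values give no signal over background, so dim probe sets could not be filtered. No depth applies to arrays, and their number limits the precision.

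The platform annotation named 1 gene for 21789 of 28856 probe sets, several for 1621 and none for 5446. Symbols were brought up to date by gene ID where RefSeq (GRCm38.p6) held it, in 21698 cases. A probe set naming Srebf2 beside other genes was not used. Probe sets of a gene were averaged (999 of 19938 genes). Group and replicate were read from each title. Promoter coordinates are those of the RefSeq table.

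limma (lmFit, eBayes) fitted differentiated minus undifferentiated over all genes, two-sided and without a block. P-values were adjusted by Benjamini-Hochberg over the 19938 genes, and 0.05 was the threshold. Errors are moderated SEs and intervals are 95%. The fit was tested on simulated data. All members are named, as are up to 3 genes with the largest changes past the threshold in each of the other 9 lists. Nr1h3, Csf1r, Adgre1, Ptprc, Itgam, Col1a1 and Sp7 were named after their values were seen. Members and lists were chosen with earlier results of these data known. Alternatives comprised a replicate block, 3 scalings of the deposited values, other probe set rules, array weights, robust eBayes and each array left out. R 4.3.3, limma 3.58.1 and Python 3.11.15 were used.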

Additional observations from a re-analysis of the deposited data

How the results depend on the processing

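Of the 29 genes, 21 kept direction and call in every alternative run, and the other 8 are named above or here. None changed direction. The count of lower genes was 12 to 14 and that of higher genes 3 to 7 over all alternatives. Leaving out 1 array at a time gave 12 to 13 lower and 3 to 7 higher genes, the fewest higher without undifferentiated replicate 2, and 6003 to 7523 genes called over the whole table. With replicate number as a block, 14 genes were lower, 5 higher and 7162 called in all: Fdft1 gained a call (adjusted p = 0.0361) and Dhcr7 lost its own (0.0692). Same-numbered arrays did not consistently deviate together (correlations of their deviations over genes were -0.00133, 0.0692 and 0.162 for replicates 1, 2 and 3). The value of replicate 3 was the highest of any differentiated and undifferentiated pair, but not every array correlated best with its own number. Of 30 other named genes, not counting Col1a1 and Sp7, 26 kept direction and call. Laptm5 lost its call with the block too (adjusted p = 0.0529), and Laptm5 and Cebpa each lost it without any 1 of 4 arrays, as given above. Erlin1 and Ube2g2 kept their calls after cyclic loess at smaller values. Csf1r (-0.0172 to 0.123) and Adgre1 (-0.0799 to 0.00693), neither past the threshold, changed sign when 1 array was left out. The cause of these changes was not tested. Of the 29 genes, the 4 that lost a call when 1 array was left out (Sqle, Tm7sf2, Dhcr7 and Nceh1) had changes of 1.16-fold to 1.24-fold.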
